A study of Paeonia lutea x Paeonia suffruticosa with 9 samples.

Results

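The transcripts described here are the 200 whose level in stage I flower buds of ‘High Noon’, a tree peony, lay furthest above their level in both later stages, and they were chosen by their FPKM in the same 9 libraries that are described. Each transcript was given as ratio its lowest FPKM + 1 in stage I over its highest FPKM + 1 in stages II and III. Transcripts were left out if the lowest FPKM + 1 of stage II was at least 1.5 times the highest FPKM + 1 of stage III, or the reverse, or if the study listed them as floral genes. Of 137758 transcripts, 823 met the rule with a ratio of at least 2, and the 200 with the highest ratios are the members. FPKM is the number of fragments scaled to transcript length and to the mapped fragments of the library. ‘High Noon’ is a hybrid of Paeonia lutea and Paeonia suffruticosa that can bloom more than once a year. Untreated floral buds of plants labelled as 5 years old were collected at stage I (vegetative meristem), stage II (floral meristem) and stage III (floral organ), with 3 libraries per stage (S1_1 to S1_3, S2_1 to S2_3 and S3_1 to S3_3). Adjacent scales and leaves were removed, so a library covers the rest of the bud and not the meristem alone, and how many buds went into a library is not stated. Nothing in the labels says that the replicates came from separate plants, so the spread between them may be partly technical. The files pair no transcript with a gene name, and members are given by their rank in the ratio.

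A vegetative shoot apical meristem makes leaves and stem, and it becomes a floral meristem when meristem identity genes are switched on. During this change, genes that serve the vegetative phase or delay flowering are turned down. In a bud, the primordia and young leaves around the meristem also contribute RNA, and in bulk samples fewer cells of a type and less RNA per cell cannot be told apart. The stage labels were compared with transcripts that the study matched to floral genes. The summed FPKM of 11 transcripts matched to AP1, FUL, LFY, UFO, SEP3, SEPALLATA2 and PI, which set meristem and floral organ identity in model plants, lay between 2.29 and 5.07 in stage I, between 20.8 and 42.8 at stage II, then between 75.8 and 172 at stage III. In stage I, 3 of the 11 had 0 reads in all 3 libraries. The sum does not describe each of the 11. LFY had an FPKM of 1.95, 2.52 and 0.05 in stage I and 3.93, 3.61 and 2.45 in stage II, so these stages overlapped. The more abundant PI transcript had 4.02, 0.42 and 0.59 in stage II and 62.7, 25.4 and 47.7 in stage III. The study chose the 11 transcripts on the same libraries, so they are not independent evidence of the labels. An annotation of the transcripts was not used here, so markers of leaf, scale or vascular cells were not examined.

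The libraries held 20065002 to 25195520 fragments. S1_3 stood apart from its replicates. Over all transcripts, its squared correlation of log2(FPKM + 1) was 0.861 with S1_1 and 0.851 with S1_2, against 0.950 between those libraries. S1_1 reached nearly as much with the stage II libraries (0.848 to 0.852) as with S1_3. The RNA integrity values that the study lists are lower for every stage I sample than for any sample of the later stages. RNA integrity and stage cannot be told apart here.

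The ratio of the members ranged from 3.15 to 132, with a median of 4.10. It was at least 5 in 61 members, at least 10 in 16 and at least 20 in 8. The limit of 200 fell in a continuous series of values. The member of rank 199 had a ratio of 3.153 and the member of rank 200 had 3.150, while the transcripts of rank 201 and 202, just outside, had 3.145 and 3.144. Behind the members, 623 further transcripts met the rule. With a ratio of at least 2, 41 transcripts were left out because stage II lay above stage III, 29 of them with a ratio above that of the last member, and 0 because stage III lay above stage II. The list of floral genes removed 1, the AGL15 transcript c105115, whose product delays flowering in Arabidopsis. Its FPKM was 10.7, 9.42 and 17.6 in stage I, 3.26, 3.13 and 3.47 at stage II, then 2.35, 2.93 and 2.41 at stage III. With a ratio of 2.33 it would have been at rank 493 and not a member. The study also lists another AGL15 transcript and a TEM2 transcript as floral repressors. That AGL15 transcript was also lower after stage I, at an FPKM under 1 throughout (ratio 1.41). TEM2 did not show this step (ratio 0.535). Its FPKM was 5.73, 5.66 and 23.4 in stage I, 5.72, 4.84 and 4.26 at stage II, then 10.1, 10.9 and 11.5 at stage III. In the opposite direction, 2448 transcripts met the mirrored rule, with the lowest library of stages II and III at least 2 times the highest of stage I.

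The members ranged from low to very high level in stage I. The rule itself favours a high level there. A ratio of at least 3.15 on FPKM + 1 needs an FPKM of at least 2.15 in each stage I library. Their median FPKM was 44.0 in S1_1, 61.6 in S1_2 and 42.7 in S1_3. It was 3.40, 4.21 and 5.05 in S2_1, S2_2 and S2_3, and 3.35, 2.84 and 2.66 in S3_1, S3_2 and S3_3. The 39537 transcripts expressed in stage I, defined by an FPKM of at least 1 in each library of that stage, had medians of 5.95 to 6.24 in stage I and of 6.38 to 6.87 in the later libraries. The mean FPKM in stage I was under 10 for 21 members, 10 to 100 for 110, 100 to 1000 for 59 and at least 1000 for 10. The median difference in mean log2(FPKM + 1) was -2.83 from stage I to II (quartiles -3.71 and -2.36) and -3.23 from stage I to III (quartiles -4.21 and -2.60). Over the 39537 transcripts expressed in stage I, the medians were 0.01 and -0.01, and 9.78% and 11.9% of them had differences below -1. All stage I libraries lay above all 6 later libraries in 20.5% of those transcripts, and by the rule in each member. These differences describe how the members were chosen and were not tested. The median difference was nearly as large at stage II as at stage III. The rule favours this, because it left out transcripts whose stage II and III libraries were clearly apart.

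**Figure D1:**
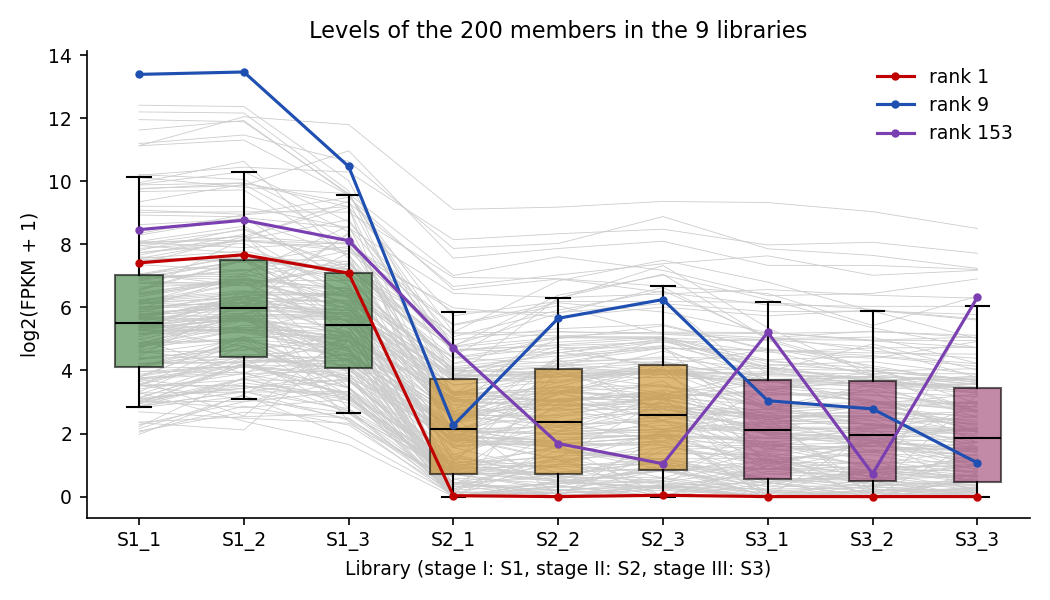
Levels of the 200 members, as log2(FPKM + 1), in each of the 9 libraries. Boxes show the quartiles and the median, whiskers the percentiles 5 and 95, grey lines single members, and the coloured lines the members of rank 1, 9 and 153. The median FPKM was 42.7 to 61.6 in stage I, against 2.66 to 5.05 in the 6 later libraries, where most members kept a measurable level.

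The data go only partly with the idea of a shutdown. The median member kept 7.93% of its stage I mean FPKM in stage II and 6.33% in stage III. In the highest of the 6 later libraries, 7 members had 0 reads, 34 had an FPKM above 0 and up to 1, 81 from 1 to 10, 66 from 10 to 100 and 12 above 100. Only 16 members stayed under 1% of their stage I mean in all 6 libraries, and 51 exceeded 20% of it in at least 1. The members thus run from transcripts that were not detected after stage I to transcripts that remained abundant at a lower level.

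The clearest loss was that of the member of rank 1, i2_HQ_HNbud_c14685/f5p28/2197, a transcript of 2197 bp. Its FPKM was 170, 203 and 135 in stage I, 0.02, 0 and 0.03 in stage II and 0 in each stage III library. This corresponds to 5545 to 7772 reads per library in stage I against 0.85, 0 and 1 in stage II. By the rule, each stage I library lay above all later ones, and the level after stage I is at the limit of detection. The member of rank 2 (2753 bp) had an FPKM of 109, 109 and 71.6 in stage I, with 3781 to 5600 reads, and 0 reads in all 6 later libraries. Against a floor of 3 reads per library, its stage I mean was at least 1608-fold higher. For the other 6 members without later reads, at ranks 28 to 200, the same comparison gave at least 30.8-fold to at least 189-fold. These floors cover counting error only, and RSEM divides reads between similar transcripts, which can leave one of them at 0.

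Other members of high rank show the same step with uneven stage I libraries. The member of rank 3 (3538 bp) had an FPKM of 115, 148 and 67.1 in stage I and was above 0 later only in S2_2, at 0.26. The member of rank 4 (1931 bp) was highest in S1_3, at 212 against 50.9 and 66.3, and had at most 0.28 in the later libraries. The member of rank 5 (3282 bp) was even across stage I, at 39.98, 39.97 and 41.2, and had at most 0.07 later. For these members the order of the stage I libraries differed, while the later libraries were near 0 in each case. By contrast, the member of rank 7 kept a clear residual level. Rank 7 (1059 bp) had 945, 987 and 583 in stage I and 3.72 to 25.1 in the later libraries. Rank 8 (896 bp) had 121, 179 and 53.2 in stage I and 0 to 1.53 later.

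The 10 members with a mean stage I FPKM of at least 1000 were short transcripts of 412 to 1014 bp, at ranks 9 to 191. The most abundant was the member of rank 9, i1_LQ_HNbud_c278370/f1p26/1014. Its FPKM was 10748, 11328 and 1418 in stage I, 3.80, 49.4 and 75.1 at stage II, then 7.23, 5.88 and 1.10 at stage III. S1_3 was 7.58 times below S1_1 but still above every later library. The stage I mean was 183 times that of stage II and 1653 times that of stage III, and the stage II mean was 9.03 times that of stage III. In edgeR its log2 fold change was -7.62 (SE 1.45) from stage I to II and -10.78 (SE 1.30) from stage I to III, fitted over 3 libraries per stage. The members of rank 27 (764 bp) and rank 16 (927 bp) were the next most abundant. Rank 27 had an FPKM of 5457, 5298 and 1039 in stage I, 12.6, 77.7 and 132 at stage II, then 31.1, 15.8 and 6.72 at stage III. Rank 16 had 4709, 4594 and 829 in stage I, 5.32, 49.6 and 75.2 at stage II, then 10.4, 9.16 and 2.27 at stage III. In all 3 the libraries fell in the same order within each later stage.

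Grouped after their values were seen, 6 of the 10 had an FPKM in S1_3 under 50% of the mean of S1_1 and S1_2, and 4 did not. In the 6, S1_1 was 2.95 to 7.58 times S1_3. Their FPKM in the later libraries was at most 7.01% of the stage I mean. It was lowest in S2_1 (0.05% to 1.42%) and highest in S2_3 (0.96% to 7.01%) among the stage II libraries, and lowest in S3_3 (0.01% to 1.38%) and highest in S3_1 (0.09% to 4.25%) among the stage III libraries, for each of the 6. In the 4 others, the later libraries held 6.65% to 28.0% of the stage I mean. The order was not particular to the 6. S2_1 was also the lowest and S2_3 the highest stage II library in all 4 others. S3_3 was the lowest and S3_1 the highest stage III library in 3 of them. An example is the member of rank 164 (767 bp), with an FPKM of 2239, 4235 and 3561 in stage I, 551, 580 and 657 at stage II, then 641, 524 and 362 at stage III. It was lower after stage I and remained abundant.

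**Figure D2:**
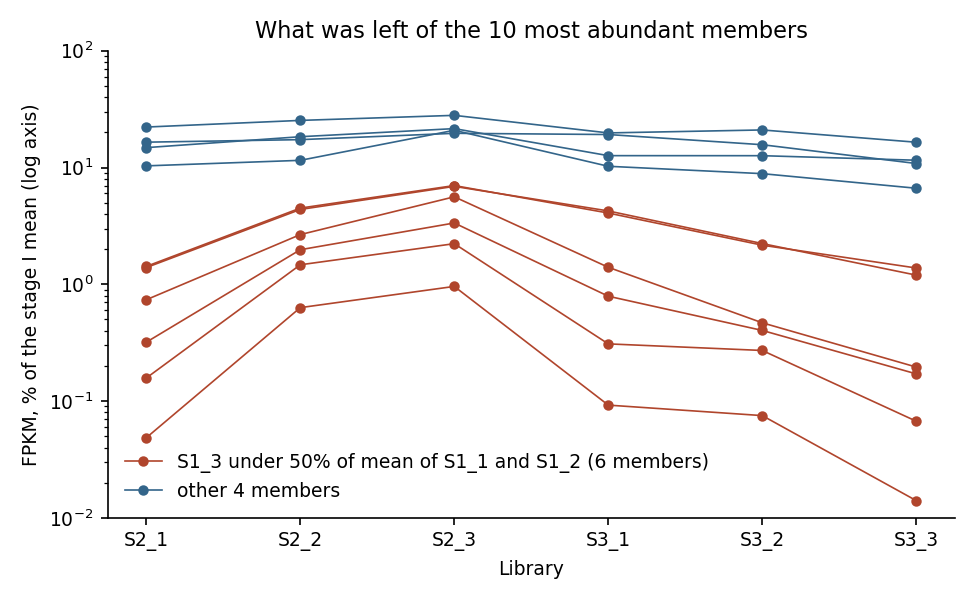
FPKM in each library of stages II and III, as a percentage of the stage I mean on a log axis, for the 10 members with a mean stage I FPKM of at least 1000. Each line joins the values of 1 member. The 6 members that were low in S1_3 kept at most 7.01%, and the other 4 kept 6.65% to 28.0%. Among the stage II libraries, S2_3 was the highest in the 6 and in the 4 alike.

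The order of libraries seen in the abundant members was also common over all members with a measurable later level, a set that includes the abundant ones. Among the 125 members with an FPKM of 1 or more throughout stage II, S2_1 was the lowest in 62.4% and S2_3 the highest in 59.2%, against 25.7% and 32.3% of 45343 other transcripts. Among the 118 members with that level throughout stage III, S3_3 was the lowest in 69.5% and S3_1 the highest in 55.9%, against 34.3% and 31.5% of 45784 others. Members may share reads and have similar profiles, so these shares are a description without a test. The residual level of the members thus varied by library. S2_3 was the highest of the 6 later libraries in 89 of the 193 members that had any later reads. That count was not compared with other transcripts. Across the 200 members, the correlation (Pearson's r) of log2(FPKM + 1) between S1_1 and S2_1, S2_2 and S2_3 was 0.667, 0.821 and 0.840. The members share these libraries and their depth, so the correlations are given without a p value.

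Within stage I, the highest library was a median of 1.78 times the lowest for the members, against 1.68 times in the 39337 other transcripts expressed in that stage. S1_2 was the highest library in 128 members (64.0%, against 34.2% of the others) and S1_3 the lowest in 111 (55.5%, against 43.9%). The level in S1_3 was under 50% of the mean of S1_1 and S1_2 in 42 members (21.0%, against 13.3%) and over 2 times that mean in 12 (6%, against 9.52%). The 42 members low in S1_3 had a median stage I FPKM of 115 and kept a median of 3.29% of it in stage II and 1.35% in stage III. The 146 members between these limits had a median stage I FPKM of 42.5 and kept 12.5% and 8.20%. The rule sets the lowest stage I library against the later ones, so a member low in S1_3 had to be lower still in the later stages to be chosen. The extremes were the member of rank 159 (961 bp), with 38.1, 72.3 and 4.24 in stage I, and the member of rank 165 (947 bp), with 4.08, 3.33 and 29.8. The most even was the member of rank 93 (1011 bp), at 516, 522 and 519 in stage I, 123, 119 and 100.9 at stage II, then 85.8, 42.0 and 80.7 at stage III.

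The members made up a larger part of the transcriptome in stage I than later, which follows from the rule. They held 4.54%, 5.24% and 3.03% of the fragments in S1_1, S1_2 and S1_3, 0.270%, 0.341% and 0.396% in S2_1, S2_2 and S2_3, and 0.281%, 0.234% and 0.248% in S3_1, S3_2 and S3_3. The widest 95% Wilson confidence interval, that of S1_2, ran from 5.23% to 5.25%, which is narrow beside the differences between replicates. The means were 4.27% ± 1.13 in stage I, 0.336% ± 0.0628 at stage II, then 0.254% ± 0.0243 at stage III (SD, n = 3). Without S1_3 the stage I mean was 4.89%. The 3 most abundant members alone took 29.8%, 26.2% and 7.27% of the members' fragments in S1_1, S1_2 and S1_3, and 0.222% to 4.24% in the later libraries. Without the 10 most abundant members, the other 190 held a mean of 2.54% ± 0.403 of the fragments in stage I, 0.231% ± 0.0327 at stage II, then 0.186% ± 0.0199 at stage III (SD, n = 3). Their share was 2.45%, 2.98% and 2.19% in S1_1, S1_2 and S1_3, so S1_3 lay nearer to its replicates once the 10 were left out.

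**Figure D3:**
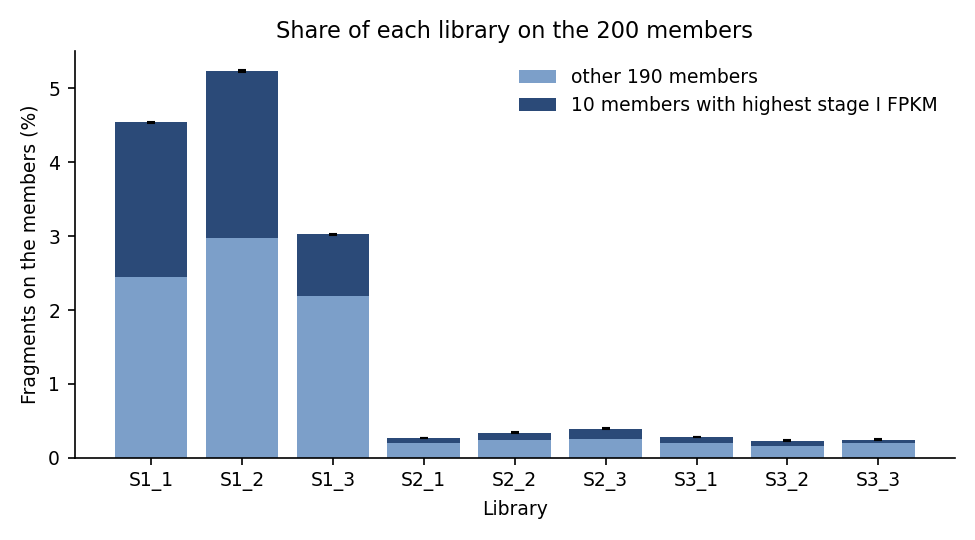
Share of each library's fragments that lay on the 200 members, in percent, split into the 10 members with the highest stage I FPKM and the other 190. Error bars are 95% Wilson confidence intervals of the total and cover counting error only. The stage I libraries reached 3.03% to 5.24%, against 0.234% to 0.396% later.

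The 3 comparisons of stages were fitted over all transcripts with edgeR's quasi-likelihood test, with calls at a q value (Benjamini-Hochberg) under 0.001 and a change of more than 2-fold. The rule used the same contrasts, so the calls are counted here as a description. From stage I to II, 0 of the 200 members were called, where 0% of the 64662 transcripts tested were called lower. All 200 had an unadjusted p under 0.05 in edgeR, as did 37% of the transcripts tested. DESeq2 called 194 and limma on log2(FPKM + 1) called 40. These tools called 3.25% and 0.0906% of the transcripts they tested lower. With all 9 libraries in one model, edgeR called 108 members, where 0.83% of transcripts were called lower. At a q value under 0.05, edgeR called 198 members, where 7.98% of transcripts were called lower. The 2 that missed it, at ranks 32 and 87, had FPKM values of 0, 0 and 2.87 and of 0, 1.34 and 7.46 in stage II, so that 1 library was far above its replicates.

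From stage I to III, edgeR called 1 of the 200 members at a q value under 0.001, where 0.00614% of 65124 transcripts were called lower. It was the member of rank 34 (1634 bp), singled out after its values were seen. Its FPKM was 57.6, 59.99 and 55.97 in stage I, 1.5, 4.13 and 6.77 at stage II, then 0.83, 0.69 and 0.55 at stage III, so the replicates of stages I and III were close. The count rose to 127 without S1_3 (1.74% of transcripts called lower). It was 0 when any 1 of the other 5 libraries was left out, where 0 of all transcripts tested were called. At a q value under 0.05, edgeR called 197 members, where 10.3% of transcripts were called lower. At a q value under 0.001, DESeq2 called 195 members (4.77% of transcripts called lower) and limma 138 (0.828%). In edgeR, 134 were called with all 9 libraries in one model (1.85%) and 22 without the filter on low counts (0.0674%). The 3 members that edgeR did not call at a q value under 0.05, at ranks 107, 120 and 153, each had widely spread stage III libraries.

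The rule removed only transcripts whose stage II and III libraries were clearly apart, so members could still differ between these stages. The median difference in mean log2(FPKM + 1) was -0.31 (quartiles -0.62 and -0.06), against -0.02 over the transcripts expressed in stage I. It was below -1 in 16 members. The mean FPKM was lower in stage III in 156 members and higher in 37. All 3 stage III libraries lay below all 3 stage II libraries in 53 members, or 26.5%, and above them in 4, where 14.2% and 11.7% of the expressed transcripts did so. Of the 153 members that passed the filter on low counts for these stages, edgeR called 0, where 0.00616% of transcripts were called in either direction. Of the 153, 56 had an unadjusted p under 0.05, as did 17.4% of the transcripts tested. DESeq2 called 4 (3 lower and 1 higher in stage III) of the 193 members with reads, 39 of which had no adjusted p value, and limma called 0 of 137, where they called 1.18% and 0.0194% of transcripts. At a q value under 0.05, edgeR called 2 (1.48% of transcripts), at ranks 31 and 160, singled out after their values were seen. Rank 31 (2676 bp) had 2.10, 2.18 and 2.75 in stage II and 1.14, 1.09 and 1.20 in stage III. Rank 160 (853 bp) had 25.8, 32.0 and 32.6 in stage II and 17.3, 14.8 and 12.01 in stage III. In both, the stages did not overlap and stage III was lower.

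The member whose mean FPKM + 1 increased by the largest factor from stage II to III, among the 132 with at least 10 reads in each later library, was i4_HQ_HNbud_c4360/f13p0/4359, at rank 153. Its FPKM was 353, 434 and 277 in stage I, 25.1, 2.21 and 1.06 at stage II, then 36.0, 0.65 and 78.7 at stage III. The libraries of stages II and III overlapped, and S2_1, S3_1 and S3_3 were far above S2_2, S2_3 and S3_2. In edgeR the log2 fold change from stage II to III was 2.09 (SE 1.56), and the means of 9.45 ± 13.6 and 38.5 ± 39.1 (SD, n = 3) differed by less than the larger SD. The log2 fold change was 4.52 without S2_1 and 1.02 without S3_3, so single libraries set its size.

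**Figure D4:**
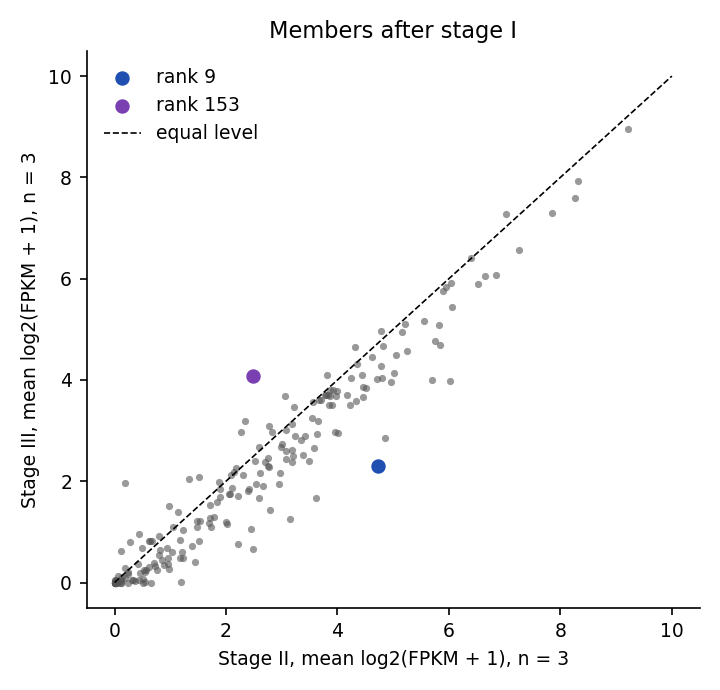
Mean log2(FPKM + 1) of the 200 members in stage III against stage II (3 libraries each), with the line of equal level. Of the members, 155 lie below the line and 38 above it. The member of rank 9 lies furthest below the line, and the member of rank 153 is marked above it.

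Features that the rule did not use directly were read from the identifiers and counts. Length can still affect the choice of members, because FPKM is scaled to it. The median length of the members was 1250 bp (quartiles 885 and 1991 bp, range 363 to 4549 bp), against 1565 bp in the other transcripts expressed in stage I and 1654 bp in all transcripts. A length under 1000 bp was found in 33.0% of members, 19.0% of the others expressed in stage I and 21.8% of all. The 10 most abundant members had a median length of 832 bp. The identifiers also carry the support by long reads, which the authors sequenced from RNA of the stages mixed together. A high-quality mark (HQ) was carried by 32.5% of members, 30.7% of the others expressed in stage I and 12.9% of all transcripts. The number of full-length reads was 1 in 64.5% of members and 64.4% of the others expressed in stage I. In these features the members were close to other transcripts of stage I. At least 10 further long reads that were not full-length supported 23.0% of members against 10.2% of the others, and 14 of the 20 members of the highest rank. The members had a higher stage I level than the others, and none of these features was compared at a matched level. Fractional counts in 1 or more libraries (tolerance 0.005) were found for 93.0% of members and 91.4% of the others expressed in stage I. Nearly all of them thus share at least some reads with other transcripts. How many separate genes the members stand for was not examined.

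To read the pattern in libraries that had no part in choosing transcripts, the rule was applied again with the 3 libraries of a replicate number left out, and the 200 transcripts then chosen were read in those libraries. The reselected lists shared 134, 157 and 117 transcripts with the members when replicates 1, 2 and 3 were left out. In the libraries left out, the stage I value was at least 2 times the higher of the stage II and III values, as FPKM + 1, for 189, 179 and 157 of the 200. The other transcripts compared had at least the minimum stage I FPKM of each reselected list (2.82, 2.73 and 3.8). Among them, 8.50%, 11.97% and 9.72% reached this. Above that minimum they were not matched in level to the reselected transcripts. The median ratio in the libraries left out was 4.26, 7.35 and 4.11, against 0.911, 0.907 and 0.898 in the other transcripts. Most of the reselected transcripts thus showed the same step in unread libraries, and fewest did so in the replicates with S1_3. This describes the reselected lists and not the 200 members. The replicates may not come from separate plants, so the libraries left out may not be independent of those read. With only 1 stage I library left out, the lists shared 159, 185 and 123 transcripts with the members for S1_1, S1_2 and S1_3, and 193, 194 and 162 of the 200 had a ratio of at least 2 in that library, against 5.63%, 8.49% and 7.16% of the others. Here the later libraries were the same ones that the selection had read. The lowest ratio in S1_3 was 0.0606, so at least 1 transcript that was high in S1_1 and S1_2 lay far below its later level there.

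**Figure D5:**
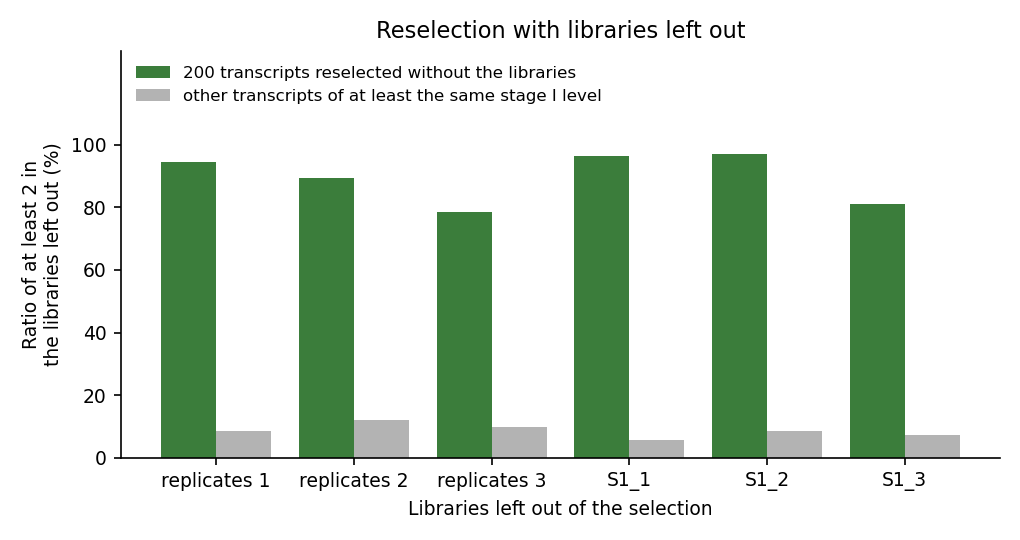
Percentage of transcripts with a ratio of at least 2 when libraries were left out of the selection. Green bars are the 200 reselected transcripts. Grey bars are other transcripts with at least their minimum stage I FPKM, not matched in level above it. The first 3 pairs of bars leave out all libraries of a replicate number and read the ratio in those libraries. The last 3 leave out a single stage I library and set it against later libraries that the selection had read. The reselected lists reached 189, 179, 157, 193, 194 and 162 of 200.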

How the data were processed

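RNA-seq libraries from buds at 3 stages, 3 per stage, were analysed. The authors filtered read pairs with ng_QC, mapped them with bowtie2 to their polished long-read transcripts and counted them with RSEM, and deposited for each library expected counts (fractional, not normalized) and FPKM values made from them. Versions of these tools are not given in the sources used here, and no genome was used. RSEM divides reads between similar transcripts, so levels of close copies are uncertain. The deposited tables list more transcripts than the set left after the authors removed redundant ones, for a reason not given in the sources used here. Members were chosen on FPKM + 1 in all 9 libraries. The members, the lists and the tests were chosen with earlier results of these data known. Only the deposited values were used, and no columns were left out.

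Expected counts were rounded, filtered by filterByExpr (minimum count 10, minimum total 15), normalized by TMM and tested with edgeR 4.0.16 (R 4.3.3) over all transcripts of the 6 libraries of each pair of stages. The SE of a log2 fold change is its size divided by the square root of the F statistic. Alternatives were DESeq2 1.42.0, limma 3.58.1 with a trend on log2(FPKM + 1) (transcripts that reached an FPKM of 1 in 3 or more libraries), RLE size factors, no filter, a single model of all 9 libraries, a block for the replicate number, a q value under 0.05, other pseudocounts (0.1 and 10), FPKM rescaled by TMM, and each library left out. Identifiers are printed for the member of rank 1, the member with the highest stage I FPKM and the member that increased most from stage II to III with at least 10 reads in each later library. Other members have ranks only. Shares of fragments have 95% Wilson intervals. Tables were made with Python 3.11.15, pandas 2.3.3, NumPy 2.4.6, SciPy 1.17.1 and Matplotlib 3.10.9. The scripts were tested on simulated data.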

Additional observations from a re-analysis of the deposited data

How the results depend on the processing

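The choice of members depended on the form of the rule. Of the 200 members, 124 were kept with a pseudocount of 0.1, 126 with a pseudocount of 10, 77 with the ratio of stage means, and 123 (without S1_3) to 196 with 1 library left out. Rescaling the FPKM by TMM kept 194. The median log2 difference with a pseudocount of 0.1 and 10 was -3.52 and -1.77 between stages I and II, -3.90 and -1.89 between stages I and III, and -0.45 and -0.0892 between stages II and III. With 1 library left out it stayed at -2.91 to -2.71, -3.25 to -3.09 and -0.34 to -0.22. The members called from stage I to II numbered 0 in edgeR, 198 at a q value under 0.05, 194 in DESeq2, 108 with all 9 libraries in one model and 40 in limma. From stage I to III they numbered 1, 197, 195, 134 and 138 in the same order, 22 without the filter on low counts, and 0 to 127 with 1 library left out, the highest without S1_3. From stage II to III they numbered 0, 2 at a q value under 0.05 and 4 in DESeq2. With the replicate number as a block, edgeR called 0 members in each comparison, where 0% of the transcripts tested were called. Samples with the same number did not deviate together (correlations of -0.20 to 0.12, against -0.14 to 0.20 for different numbers). With 3 libraries per stage, this cannot show whether samples of the same number share a plant or a batch. The cause of the differences between settings was not tested. Of 229 alternative values, 36 moved beyond the limits set for them. The fitted log2 fold changes of the transcripts with a printed identifier kept their sign in all 132 alternatives, and 8 of these moved. That of the member of rank 153 from stage II to III ranged from 1.02 to 4.52 with 1 library left out and was 1.21 with the block.

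Depth limits what can be said of members near 0 after stage I, where a library had at most a few reads.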
